A study of Mus musculus with 4 samples.

Results

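The Src family kinases Src, Fyn, Yes1, Lyn, Fgr and Blk and their direct regulators Csk, Ptpn11 (SHP-2) and Ptpn6 (SHP-1) were followed in B16-F10 mouse melanoma cells exposed to an antibody against TIM-3. A probe was taken as a member where the gene name in the array files, or the current symbol of its RefSeq accession, was 1 of these 9 genes. This gave 17 of the 41174 probes of the array, 9 for the kinases and 8 for the regulators, and 14 of them were among the 26543 probes tested. In each of 4 biological replicates, cells given goat polyclonal anti-mouse TIM3 antibody were set against cells of the same passage given unspecific goat IgG. The source name of replicate 1 calls the antibody agonist, and those of the other replicates do not. Exposure lasted 2 h in culture in high glucose DMEM with serum, glutamine and antibiotics. The dose was 15 ug/ml for the antibody and for the IgG, but the labels of replicate 3 do not repeat the protocol of its anti-TIM3 cells, so their dose is not stated. Replicates 1 to 4 came from passages 14, 16, 18 and 19 of the line, so p-values reflect the variation among passages of 1 line. Both RNAs of a replicate were hybridised to the same 2-colour array, with anti-TIM3 in Cy5 and IgG in Cy3 on all 4, so the dye and the antibody cannot be told apart.

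Src family kinases are membrane-bound tyrosine kinases that start signalling below many receptors without kinase activity of their own. Csk phosphorylates a tyrosine in their C-terminal tail, and the tail then folds back onto the kinase and keeps it inactive. SHP-2 is a tyrosine phosphatase that mostly promotes growth factor signalling, whereas SHP-1 mostly dampens receptor signalling in blood cells. In T cells, Fyn is known to bind the cytoplasmic tail of TIM-3, the receptor encoded by Havcr2. Src, Fyn and Yes1 are made in most tissues, while Lyn, Fgr, Blk and SHP-1 are best known from blood cells. An expression array reads the transcripts of these genes and not the phosphorylation by which the proteins are switched.

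The probes are printed here because Src, Lyn, Csk and Ptpn11 each had a probe that passed and another that did not. Each value was read at the stretch of transcript its probe matches. With 4 arrays, differences between probes could not pass the test given below. All are 60 bases long, written 5′ to 3′ in the sense of the transcript, with G and C in capitals to show the base composition. Within Src, Lyn and Csk the probes of a gene differed in GC content. The Src probes and the Fyn and Yes1 probes that were tested were these.
Src, downstream: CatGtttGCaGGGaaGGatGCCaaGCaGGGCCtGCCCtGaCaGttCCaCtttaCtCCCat
Src, upstream: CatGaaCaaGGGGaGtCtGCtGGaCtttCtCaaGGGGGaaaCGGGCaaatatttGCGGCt
Fyn: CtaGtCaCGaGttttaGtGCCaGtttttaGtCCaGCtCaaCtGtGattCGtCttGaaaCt
Yes1: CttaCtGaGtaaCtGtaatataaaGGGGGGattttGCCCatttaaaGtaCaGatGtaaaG
The probes of Lyn and Csk, which contrast an upstream, GC-richer probe with a downstream, AT-richer one, were these.
Lyn, upstream: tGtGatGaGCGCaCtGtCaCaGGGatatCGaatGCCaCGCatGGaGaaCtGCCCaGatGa
Lyn, downstream: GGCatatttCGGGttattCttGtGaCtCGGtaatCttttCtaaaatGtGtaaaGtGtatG
Csk, upstream: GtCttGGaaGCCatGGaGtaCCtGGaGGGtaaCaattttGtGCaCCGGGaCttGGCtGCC
Csk, downstream: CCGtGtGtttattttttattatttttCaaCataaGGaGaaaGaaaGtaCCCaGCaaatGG
The 3 Ptpn11 probes have the same GC content, 45.0%, and were these.
Ptpn11, upstream: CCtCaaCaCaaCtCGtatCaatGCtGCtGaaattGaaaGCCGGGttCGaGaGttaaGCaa
Ptpn11, middle: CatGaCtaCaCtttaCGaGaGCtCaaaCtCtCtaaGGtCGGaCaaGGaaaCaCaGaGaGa
Ptpn11, downstream: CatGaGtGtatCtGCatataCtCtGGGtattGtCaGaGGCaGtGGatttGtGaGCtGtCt
Positions below are those of the files, on build mm7, and upstream or downstream is the genomic order along the strand of the gene. The files place no probe in an exon, an intron or a UTR, and an annotation of that build was not used here. No probe shared more than 9 bases in a row with a probe of another member in 126 such pairs.

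Of the 14 tested probes 5 passed, 2 higher and 3 lower in anti-TIM3 than in IgG cells (limma, Benjamini-Hochberg adjusted p under 0.05 over all tested probes). Over all 26543 tested probes 27.8% passed, 14.2% higher and 13.6% lower, so with 14 probes the members' 35.7% is near the background. The probes that rose were an upstream probe of Ptpn11 and the downstream probe of Lyn. Those called lower were the Yes1 probe, the upstream Csk probe and the upstream Src probe, which was detected on 0 arrays with IgG. With only probes detected by both dyes on all arrays, 4 of 12 member probes passed, beside 6858 of 20593 over all probes. The changes were small, with a median absolute log2 ratio of 0.12 over the 14 probes and 0.077 over all tested probes. The sign was the same on all 4 arrays for 10 of the 14 probes, and for 47.7% of all tested probes. A log2 ratio is the antibody signal over the IgG signal after background correction and normalisation within the array, and levels below are normalised log2 intensities, which are compared within a probe only.

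**Figure D1:**
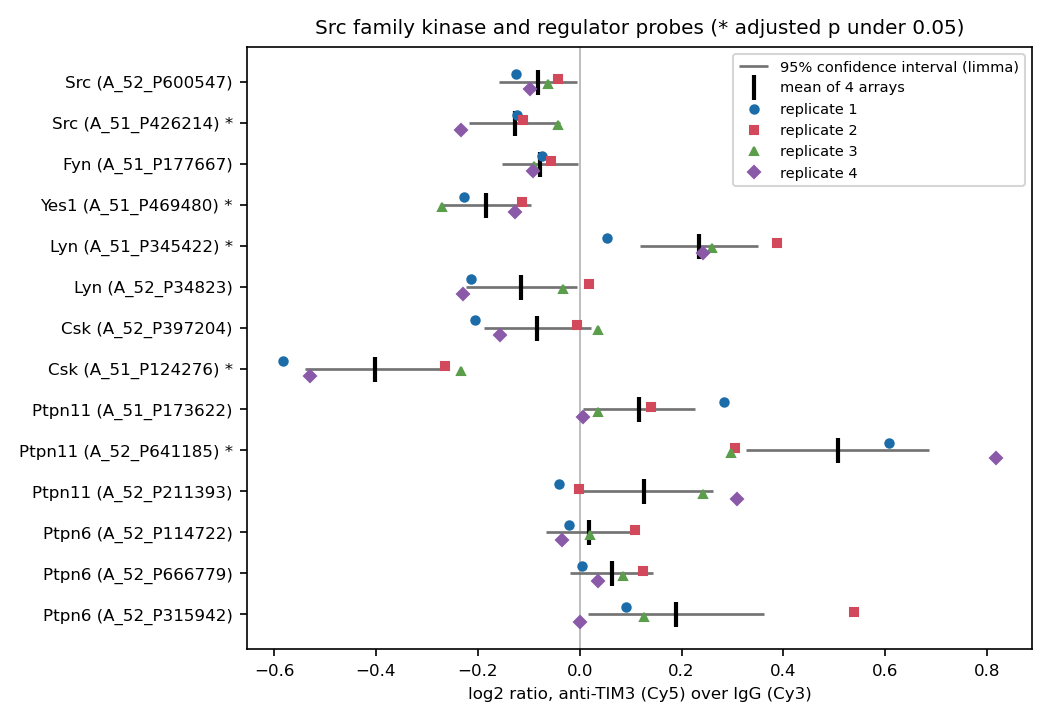
Log2 ratios of anti-TIM3 over IgG for the 14 tested probes, with 1 marker per replicate, a black bar at the mean of the 4 arrays and a grey line for limma's 95% confidence interval. Stars mark the 5 probes that passed. The upstream Ptpn11 probe (A_52_P641185) lies at 0.30 to 0.82 and the upstream Csk probe (A_51_P124276) at -0.58 to -0.23, while other probes of both genes lie closer to 0.

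The label of the cells was checked by markers. All 7 melanocyte markers (Mlana, Pmel, Dct, Tyr, Tyrp1, Mitf and Sox10) were detected, meaning well above background, with both dyes on each of the 4 arrays. Their mean level ran from 14.96 to 15.25 in anti-TIM3 cells and from 14.64 to 14.95 in IgG cells. By the brightest probe of each, 5 rose and 0 fell, beside 14.8% higher and 12.8% lower over all 17789 genes represented in this way. The other tested probe of Sox10 fell, however (-0.30, against 0.18 at the brightest). The rises were led by Mlana (0.58 ± 0.13), Pmel (0.51 ± 0.07), Dct (0.48 ± 0.16) and Tyrp1 (0.41 ± 0.05; SD, n = 4). The last 3 did not pass in the ratios of the deposited processed signals (limma, adjusted p = 0.0552 for Pmel, 0.356 for Dct and 0.176 for Tyrp1). Of 16 leukocyte markers, Ptprc, Itgam, Adgre1 and Lcp2 were well above background on 0 arrays in either channel. The mean level of the 10 leukocyte markers tested ran from 7.87 to 8.08 in anti-TIM3 cells and from 7.81 to 8.03 in IgG cells. Tyrobp (0.33 ± 0.09) and Lyz2 (0.13 ± 0.02) rose, although leaving out replicate 3 or 4 ended the call of Lyz2 (limma, adjusted p = 0.0711 and 0.0605), and the part of either marker set in the results below was not tested. Of the 41174 probes, 25701 to 28400 per array were detected with anti-TIM3 (Cy5) and 21150 to 22084 with IgG (Cy3).

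Src encodes the founding member of the family, which acts at focal adhesions. Its downstream probe, at chr2:157212377-157212436 on the + strand, had levels of 8.86, 8.92, 8.74 and 8.79 in anti-TIM3 replicates 1 to 4, and 8.99, 8.97, 8.80 and 8.88 in IgG replicates 1 to 4. Each anti-TIM3 sample was below the IgG sample of its own array, but the ranges overlap across arrays. The mean log2 ratio was -0.08 ± 0.04 (SD, n = 4), with a 95% confidence interval from -0.16 to -0.0049, and the probe did not pass (limma, adjusted p = 0.101).

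The upstream Src probe, 3015 bases away at chr2:157208490-157209421, spans 932 bases, so its sequence is split in the genome. It had levels of 6.83, 6.87, 6.72 and 6.67 in anti-TIM3 cells and 6.96, 6.98, 6.77 and 6.90 in IgG cells. It was well above background on all 4 arrays with anti-TIM3 and on 0 with IgG, although the IgG signal was the higher on each array, so it has only a bound in IgG cells and no fold is given. The fit called it lower (limma, adjusted p = 0.0412), close to the threshold. Leaving out replicate 1, 2 or 4 ended the call (adjusted p = 0.0872, 0.0941 and 0.161). So did removing trends on intensity and base composition (adjusted p = 0.117), passage as a covariate (0.0654), no filter on dim probes (0.0516) and a normexp offset of 10 (0.0502).

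Fyn encodes the kinase known to bind the TIM-3 tail in T cells, and the signal of its probe differed little between the groups. The probe, at chr10:39344532-39344591 on the + strand, had levels of 9.96, 10.13, 10.02 and 10.04 in anti-TIM3 cells, against 10.04, 10.19, 10.11 and 10.13 in IgG cells. The anti-TIM3 sample was lower on every array by a similar amount, and the ranges overlap. The log2 ratio was -0.08 ± 0.02 (SD, n = 4), or 0.947-fold, and did not pass (limma, adjusted p = 0.104). The interval from -0.15 to -0.0040 bounds the fall of this probe, and the ratio passed at -0.10 once trends on intensity and base composition had been removed (adjusted p = 0.0459).

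The Fyn probe and the downstream Src probe are printed as 10 spots on each array, which shows the error within an array. All 39 Fyn spots kept on the 4 arrays had a log2 ratio below 0, and 1 spot marked as an outlier was left out. Of the 39 Src spots kept, 35 were below 0. The SD over the spots of an array was 0.028 to 0.036 for Fyn and 0.031 to 0.053 for Src, beside a median of 0.040 for the 170 tested probes printed in this way. Spots of an array share the same RNA and dye and are not replicates of the treatment. Of those 170 probes 24.1% passed, 25 higher and 16 lower.

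**Figure D2:**
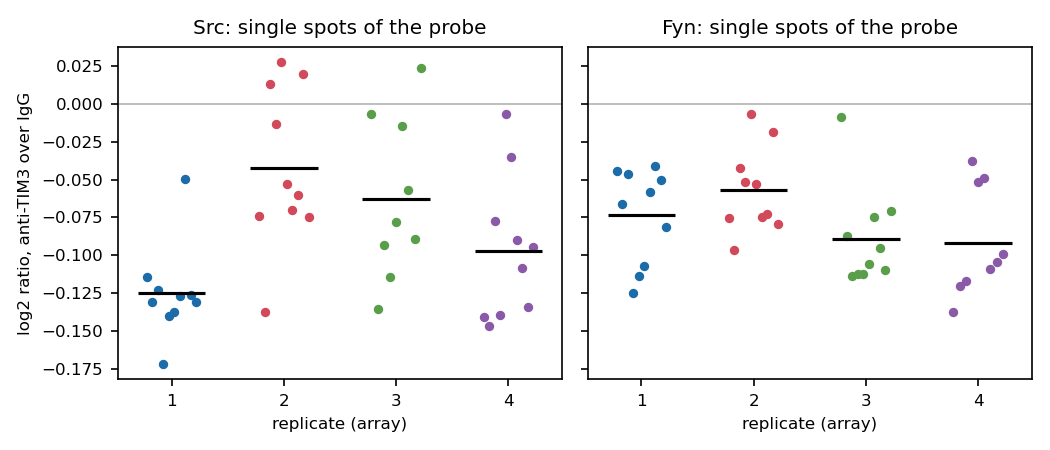
Log2 ratio of anti-TIM3 over IgG at each kept spot of the downstream Src probe and the Fyn probe, by replicate, spread sideways at random, with a black line at the mean of each array. All 39 Fyn spots and 35 of 39 Src spots lie below 0.

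Yes1 encodes a broadly expressed close relative of Src, and its tested probe was called lower with anti-TIM3. The probe at chr5:31720342-31720401 on the + strand had levels of 9.79, 9.83, 9.65 and 9.69 in anti-TIM3 cells, against 10.02, 9.94, 9.92 and 9.82 in IgG cells. The anti-TIM3 sample was lower on every array, and only the highest anti-TIM3 value (replicate 2) and the lowest IgG value (replicate 4) crossed. The mean log2 ratio, -0.18 ± 0.08 (SD, n = 4) or 0.880-fold, passed (limma, adjusted p = 0.0102), and its interval ran from -0.27 to -0.10. With each array centred on its median in place of loess the ratio was 0.04, below that setting's median of 0.15 over all tested probes. A second Yes1 probe, 74756 bases upstream and only 26.7% G and C, was well above background on 0 arrays and was not tested.

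Lyn encodes a kinase best known from B cells and myeloid cells that is also made in other tissues. Its downstream probe, at chr4:3717973-3718032 on the + strand, had levels of 9.30, 9.38, 9.21 and 9.28 in anti-TIM3 cells, against 9.25, 8.99, 8.95 and 9.04 in IgG cells. The IgG sample of replicate 1 stood above the other IgG samples, so the difference of that array was small and the ranges overlap. The log2 ratios were 0.05, 0.39, 0.26 and 0.24 in replicates 1 to 4, with a mean of 0.23 ± 0.14 (SD, n = 4; limma, adjusted p = 0.0111), or 1.18-fold, and an interval from 0.12 to 0.35.

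The upstream Lyn probe, 1068 bases away at chr4:3716905-3716964, did not rise. Its levels were 7.27, 7.35, 7.28 and 7.10 in anti-TIM3 cells and 7.49, 7.34, 7.32 and 7.33 in IgG cells. The log2 ratio was -0.11 ± 0.13 and did not pass (limma, adjusted p = 0.107). The upstream ratio was below the downstream ratio on all 4 arrays, by a mean log2 difference of -0.35 ± 0.09 (upstream minus downstream; SD, n = 4). An exact two-sided permutation test gave p = 0.125, the smallest p that 4 arrays allow, and 0.1875 adjusted over 9 such pairs of probes. The GC content was 53.3% upstream and 35.0% downstream.

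Fgr and Blk, kinases of myeloid and B cells, were hardly detected. The Fgr probe, at chr4:132380040-132380099, was well above background on 2 arrays with anti-TIM3 and 0 with IgG, and had levels from 6.60 to 6.69 in anti-TIM3 cells and from 6.52 to 6.60 in IgG cells. The Blk probe, at chr14:58242375-58243512, is split over 1138 bases and was not well above background on any array. Its levels were 6.50 to 6.57 in anti-TIM3 cells and 6.47 to 6.63 in IgG cells. Neither was tested, and no fold is given for them.

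**Figure D3:**
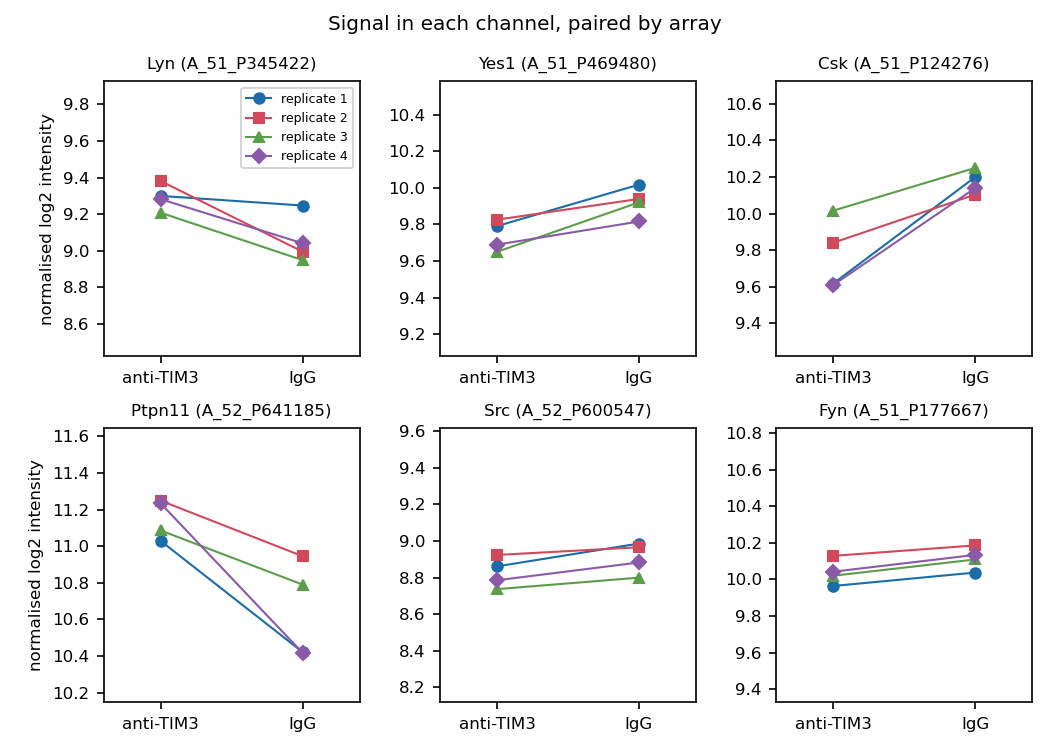
Normalised log2 intensity in anti-TIM3 cells (left) and IgG cells (right) for 6 probes of Lyn (downstream), Yes1, Csk (upstream), Ptpn11 (upstream), Src (downstream) and Fyn, with a line joining both channels of an array and the same height of axis in every panel. The lines of the upstream Csk probe all climb from anti-TIM3 to IgG and those of the upstream Ptpn11 probe all descend, whereas the lines of the downstream Src probe and the Fyn probe climb only slightly.

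Csk, the kinase that phosphorylates the inhibitory tail tyrosine, fell at its upstream probe. The probe, at chr9:57655676-57655735 on the - strand, had levels of 9.62, 9.84, 10.02 and 9.61 in anti-TIM3 cells, against 10.20, 10.10, 10.25 and 10.14 in IgG cells. Every anti-TIM3 value was below every IgG value. The log2 ratios were -0.58, -0.26, -0.23 and -0.53 in replicates 1 to 4, with a mean of -0.40 ± 0.18 (SD, n = 4; limma, adjusted p = 0.00264), or 0.757-fold, and an interval from -0.54 to -0.26.

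The downstream Csk probe, 1083 bases away at chr9:57654593-57654652, had levels of 10.45, 10.73, 10.93 and 10.74 in anti-TIM3 cells and 10.66, 10.73, 10.89 and 10.90 in IgG cells. It was lower with anti-TIM3 in replicates 1 and 4 and nearly level in 2 and 3. Its log2 ratio of -0.08 ± 0.12 did not pass (limma, adjusted p = 0.207), with an interval from -0.19 to 0.02. The upstream ratio was lower than the downstream ratio on all 4 arrays, by -0.32 ± 0.06 (exact permutation test, p = 0.125, adjusted 0.1875). The upstream probe was 55.0% G and C and the downstream probe 31.7%. In both Lyn and Csk the GC-richer, upstream probe had the lower ratio. In Src the upstream probe had the lower mean ratio but was GC-poorer (51.7% against 55.0%), and its ratio was the higher on 2 arrays. The part of base composition was not tested beyond the removal of trends. After that step the upstream Csk probe (-0.33) and the downstream Lyn probe (0.19) still passed (limma, adjusted p = 0.00539 and 0.0163). The downstream Csk probe was then at -0.13 and the upstream Lyn probe at -0.05, so both pairs lay closer together than before.

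Ptpn11, which encodes the phosphatase SHP-2, gave the highest mean ratio among the tested member probes. Its upstream probe, at chr5:120396747-120396806 on the - strand, had levels of 11.03, 11.25, 11.09 and 11.23 in anti-TIM3 cells, against 10.42, 10.94, 10.79 and 10.42 in IgG cells. The groups do not overlap, and the IgG values varied more (SD 0.27) than the anti-TIM3 values (SD 0.11). The log2 ratios were 0.61, 0.30, 0.30 and 0.82 in replicates 1 to 4, with a mean of 0.51 ± 0.25 (SD, n = 4; limma, adjusted p = 0.0031), or 1.42-fold, and an interval from 0.33 to 0.69.

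The other probes of Ptpn11 did not pass, although the middle probe did with passage as a covariate (limma, adjusted p = 0.0497). The middle probe, 18091 bases downstream of the first at chr5:120378656-120383133, is split over 4478 bases of the genome and had levels of 7.92, 8.15, 8.17 and 7.97 in anti-TIM3 cells and 7.96, 8.15, 7.93 and 7.66 in IgG cells. Its log2 ratio was 0.13 ± 0.17 (limma, adjusted p = 0.138), and it was near 0 in replicates 1 and 2 and higher with anti-TIM3 in 3 and 4. The downstream probe, at chr5:120364562-120364621, had levels of 14.73, 14.80, 14.73 and 14.69 in anti-TIM3 cells and 14.45, 14.66, 14.69 and 14.68 in IgG cells. Its log2 ratio was 0.12 ± 0.13 (limma, adjusted p = 0.102), with the highest value, 0.28, in replicate 1.

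The upstream Ptpn11 ratio exceeded the middle one by 0.38 ± 0.26 and the downstream one by 0.39 ± 0.29, on all 4 arrays in both comparisons (exact permutation test, p = 0.125 each, adjusted 0.1875). The middle and downstream probes differed by 0.01 ± 0.29 (exact permutation test, p = 1). For both Csk and Ptpn11 the upstream ratios were larger in size in replicates 1 and 4 than in 2 and 3. Over all tested probes the ratios of replicates 1 and 4 correlated at Pearson's r = 0.708 and those of 2 and 3 at 0.746, against 0.524 to 0.604 for the other pairs of arrays, a description across probes that share dye and slide.

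**Figure D4:**
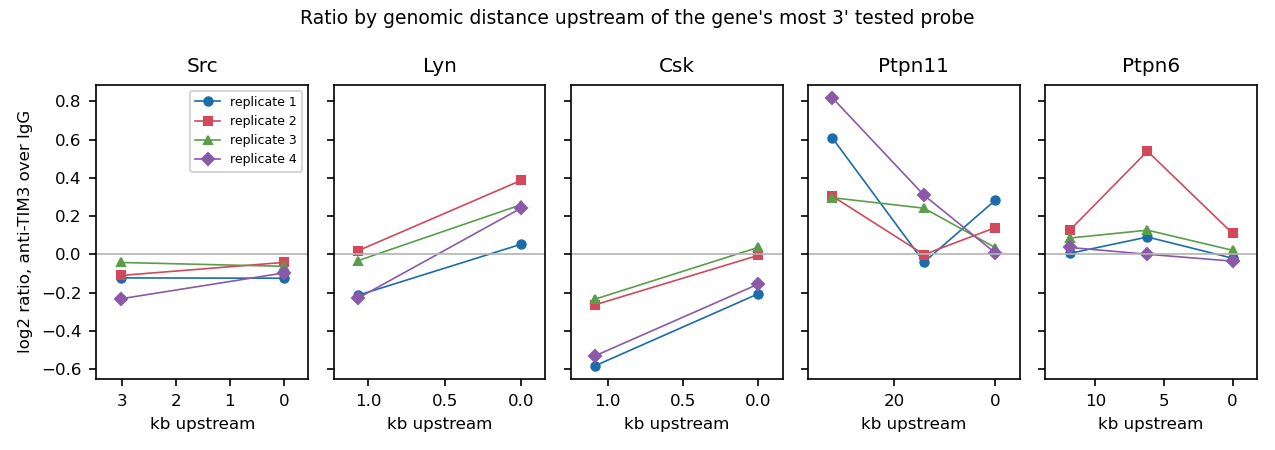
Log2 ratio of anti-TIM3 over IgG at each tested probe of the members with several, by genomic distance in kb upstream of the most downstream probe, with 1 line per replicate. In Lyn and Csk the upstream probe is lower than the downstream probe in all 4 replicates, and in Ptpn11 the most upstream probe is the highest in all 4.

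Ptpn6 encodes SHP-1, the phosphatase that acts mainly in blood cells, and passed at 0 of 3 probes (limma), 1 of them with an unadjusted p under 0.05. The most downstream probe, at chr6:124746101-124746160 on the - strand, had levels of 10.23, 10.08, 9.51 and 9.80 in anti-TIM3 cells, against 10.25, 9.97, 9.49 and 9.83 in IgG cells. Both channels of an array moved together, and the mean log2 ratio of 0.02 ± 0.07 (SD, n = 4) did not pass (limma, adjusted p = 0.734), with an interval from -0.07 to 0.10. The most upstream probe, 11885 bases away at chr6:124757986-124758045, had levels of 7.70, 7.73, 7.66 and 7.72 in anti-TIM3 cells and 7.70, 7.60, 7.57 and 7.68 in IgG cells. Its ratio was 0.06 ± 0.05 (adjusted p = 0.213), with an interval from -0.02 to 0.14.

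The remaining Ptpn6 probe, at chr6:124752309-124752368, carries an accession that the files describe as the transcript with the insertion of the viable motheaten mutation. It was well above background on 4 arrays with anti-TIM3 and 0 with IgG, with levels of 6.87, 6.94, 6.93 and 6.90 in anti-TIM3 cells and 6.78, 6.40, 6.80 and 6.90 in IgG cells. It could thus be tested only through the channel where it was higher, and it did not pass (limma, adjusted p = 0.0919). Set against a bound for IgG, the anti-TIM3 mean of this probe was 1.08-fold, a value from separate channels that is open to dye bias. As the probe was tested only through the anti-TIM3 channel, this value gives no support for a rise. The log2 ratio of 0.54 in replicate 2 stood above the others, which ran from 0.00036 to 0.13, and without replicate 2 the mean ratio was 0.07 in place of 0.19.

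The wider pathway was described by lists of genes, each gene represented by its brightest tested probe. Over all 17789 genes so represented 27.6% passed, 14.8% higher and 12.8% lower, with a median log2 ratio of 0.01. In these cultures fewer cells of a kind and less RNA per cell cannot be told apart.

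Of 17 other regulators of Src family kinases 15 were tested and 7 passed, 5 higher and 2 lower, with a median of 0.01. With only probes detected by both dyes on all arrays 5 of 12 passed, beside 6858 of 20593 over all probes. Rack1, a scaffold that binds Src, rose by 0.64 ± 0.16 (limma, adjusted p = 0.000382), but its other tested probe fell (-0.13). The size of the first ratio depended on the normalisation. It was 0.37 in the deposited signals and 0.44 with trends removed (limma, adjusted p = 0.0198 and 0.00122). With median centring it was 1.35 and did not pass (adjusted p = 0.749). Cbl, a ubiquitin ligase for active tyrosine kinases, rose by 0.36 ± 0.16 (adjusted p = 0.0027), and its other probe had -0.12. Ptprj, a receptor phosphatase that can activate Src kinases, rose by 0.19 ± 0.05 (adjusted p = 0.00591), as did its other probe (0.19). Dok1, an adaptor that recruits negative regulators, fell by 0.19 on the log2 scale (SD 0.05, adjusted p = 0.00598), and its other probe also fell (-0.39). After removal of intensity and base composition trends, the first was -0.082 and did not pass (adjusted p = 0.105). The other genes that passed, named here after their values were seen, were the phosphatases Ptpn2 (0.12) and Ptpn22 (0.15) and the Csk relative Matk (-0.13). Ptpn22 was detected on 3 arrays with anti-TIM3 and 0 with IgG, so it could be tested only through the channel where it was higher, and Matk was detected on 2 arrays with IgG.

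Of 24 substrates in adhesion and growth signalling all were tested, 4 rose and 5 fell, with a median near 0 (-0.0019). Wasl, an activator of actin branching, fell at its brightest probe (-0.27 ± 0.08, limma, adjusted p = 0.00241) and rose at its other probe (0.37). Cttn, the actin-binding protein cortactin, fell at both (-0.26 ± 0.21, adjusted p = 0.0209, and -0.42), although leaving out replicate 1 or 4 ended the first call (adjusted p = 0.0872 and 0.0827). Ctnnd1, the cadherin partner p120 catenin, fell at both (-0.24 ± 0.09, adjusted p = 0.00397, and -0.18). Cav1, the coat protein of caveolae, rose by 0.24 ± 0.08 (adjusted p = 0.00426), and its other probe had 0.04. The count of substrates that passed was 9, and 4 without replicate 4.

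Of 13 docking and adaptor partners of SHP-1 and SHP-2, 12 had probes and 9 were tested, of which 2 rose and 1 fell. Irs1, the insulin receptor substrate, rose by 0.32 ± 0.07 (limma, adjusted p = 0.00117), and its other probe had -0.08. Frs2, the adaptor of fibroblast growth factor receptors, rose by 0.15 ± 0.06 (adjusted p = 0.0166), a call that leaving out replicate 3 or 4 ended (adjusted p = 0.0678 and 0.0621). Its 2 other tested probes had 0.06 and 0.13, and 1 of them passed. Sos1, the exchange factor that activates Ras, fell by 0.17 on the log2 scale (SD 0.07, adjusted p = 0.0132), and its other tested probe had -0.09 and did not pass.

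Of 10 related kinases of the Frk, Tec and Syk groups 7 were tested and 1 fell. This was Syk, the kinase that Src family members activate below immune receptors (-0.14 ± 0.09, limma, adjusted p = 0.029). Leaving out replicate 2, 3 or 4 ended this call (limma, adjusted p = 0.112, 0.0909 and 0.0933).

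Of the receptor and its tail partners, 4 of 4 were tested and 0 passed at the brightest probe (limma), 0 also at an unadjusted p under 0.05. Havcr2 itself had a log2 ratio of 0.04 ± 0.04 (adjusted p = 0.4). Bag6, which holds the TIM-3 tail in its resting state in T cells, had 0.06 ± 0.06, and Pik3r1, a regulatory subunit of PI 3-kinase, had 0.03 ± 0.10. Another probe of Bag6 (-0.20) and another of Pik3r1 (-0.18) fell.

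**Figure D5:**
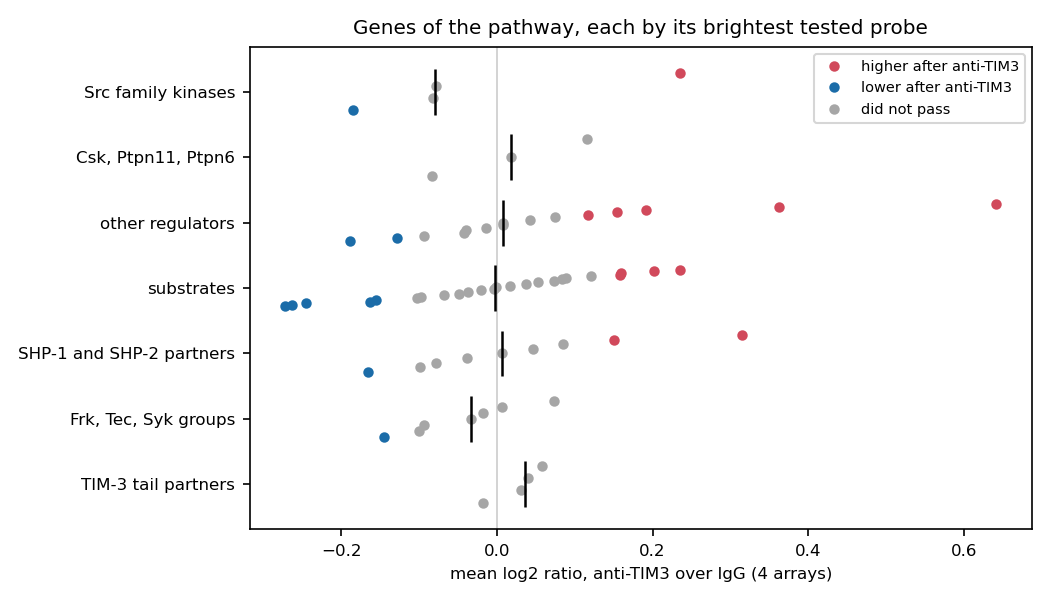
Mean log2 ratio of anti-TIM3 over IgG over 4 arrays for each tested gene of the lists, by its brightest tested probe, coloured by whether it passed. Genes higher and lower after anti-TIM3 occur together among the other regulators (5 and 2) and the substrates (4 and 5).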

How the data were processed

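The authors deposited scanner output of 4 Agilent 2-colour arrays, with the linear intensity of each spot and channel, and software version 9.5.1.1 of Feature Extraction is given per the file headers (version 9 in the submitters' processing notes). The authors' value table repeats the log10 ratio, Cy5 over Cy3, of the scanner output, with a median of 0 per column. A single slide and scan held all 4 arrays, so neither could be fitted as a block. Mean signal was corrected for median local background (normexp, offset 50), normalised by loess within the array with control spots at weight 0, and outlier spots were left out. Log2 ratios, computed here from the deposited intensity values, were averaged per probe. They were tested against 0 by lmFit and eBayes (limma 3.58.1, R 4.3.3), two-sided, and p-values were adjusted by Benjamini-Hochberg over the 26543 probes detected with either dye on 3 or more arrays. Channel levels are after loess and Aquantile.

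Differences between probes used exact sign-flip permutation tests (scipy 1.17.1). A bound for a probe below background in a channel sets its bright mean against, per array, the higher of its own dim signal and the dimmest detected probe. Probes were named through accessions and symbols of a RefSeq table. The members and lists were chosen with earlier results of these data known. The rule for named genes takes all members, Havcr2, and from each list up to 4 with the largest absolute ratio among genes that passed with 1 sign on all arrays and were detected in both channels on at least 3. Of the markers it takes any that passed. Values of 1 list gene are not reported here. Channels pair because both RNAs of an array come from the same passage, and ratios keep that pairing. With few arrays, their number limits the precision. The fit was tested on ratios simulated for the same 26543 probes: of those changed by 0.25, 0.5 and 1 on the log2 scale it called 45.5%, 91.0% and 100%, with 3 false calls. The simulated noise was independent between probes and between arrays and held no dye bias. The simulation thus cannot tell how many calls in the real ratios are false. Alternatives covered background, normalisation, filters, outliers, variance prior, weights, passage, pairing, a minimum change, the probe for a gene and each replicate left out.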

Additional observations from a re-analysis of the deposited data

Results flagged for a closer look

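For each member probe, the ratios and levels of the 4 replicates were searched for a single value far from the others, in 36 groups of 4 values, and 2 stood out. Chance flags about 1 in 20 groups. The upstream Yes1 probe had a log2 ratio of -0.25 in replicate 2, against -0.01 to 0.03 in the others. The Blk probe had -0.13 in replicate 3, against 0.02 to 0.03 in the others. Both probes were well above background on 0 arrays in either channel.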

How the results depend on the processing

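Of the 5 member probes that passed, 4 to 5 passed without any 1 replicate, and 0 passed with median centring in place of loess, without the replicate block or against a minimum change of 1.2-fold. Over all probes the 7376 calls became 0 with median centring (limma; an unadjusted p under 0.05 held for 971 higher and 38 lower), 576 without the block, 56 against 1.2-fold and 4222 to 6116 without a replicate. With the array as a replicate block 7232 passed, and no member probe changed its call. The 7 other regulators became 0 with median centring, 4 after removal of intensity and base composition trends, 1 without the block, 1 against 1.2-fold and 4 to 6 without a replicate. The 9 substrates became 0 in the same 3 settings (median centring, no block, 1.2-fold), 4 with the mean of all probes of a gene and 4 to 9 without a replicate. The 3 SHP partners became 0 in those 3, 5 with trends removed and 2 to 3 without a replicate. The 1 related kinase became 0 in those 3 and with the deposited signals, 2 with array weights and 0 to 1 without a replicate, and the 0 tail partners became 1 with trends removed. Median centring moved the median ratio to 0.15 and turned the sign of the downstream Src (0.082), Fyn (0.16), Yes1 (0.039), downstream Csk (0.19), Dok1 (0.12), Cttn (0.039), Wasl (0.0087) and Sos1 (0.069) probes. Havcr2 turned to -0.0018 with trends removed and -0.019 in the deposited signals, and the downstream Ptpn6 ratio ran from -0.012 (without replicate 2) to 0.037 without any 1 replicate. The causes were not tested. Member probes near background, such as Fgr and Blk, could not be measured.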

Other observations

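Averaged over both channels, the levels of the most downstream Ptpn6 probe spanned 0.74 on the log2 scale, from the highest, 10.24 in replicate 1, to the lowest in replicate 3. Their SD of 0.31 lies at percentile 97.5 of all tested probes, whose median was 0.085. The other Ptpn6 probes had SDs of 0.041 (most upstream, percentile 14.2) and 0.099 (percentile 59.4). Each passage was a single array, so passage and array cannot be told apart.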
